A study of Mus musculus with 3 samples.

Results

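RNA from E6.5 mouse embryos heterozygous for the *tw18* deletion (*tw18*/+) was compared with RNA from wild-type embryos, using every gene whose FPKM (fragments per kilobase of transcript, scaled to the mapped fragments of the library) was 1 or more in either library. This rule kept 12426 of the 23421 gene symbols in the deposited table. Both libraries came from embryos labelled as 129/SvEv, collected from matings of *tw18*/+ mice and labelled as epiblast, and per the methods the material was the embryo proper, which is epiblast with the visceral endoderm around it. The extra-embryonic part was used to determine the genotype, and the study describes the backgrounds of its embryos as not inbred. The *tw18*/+ embryos carry 1 chromosome with the *tw18* deletion and 1 without it, and the wild-type embryos carry no *tw18* chromosome. The remaining library, from *tw18*/*tw18* embryos of the same matings, is given beside some values for reference. There was 1 library for each genotype, the number of embryos in a library is not stated, and no difference below has a replicate check or a p-value.

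The *t* haplotypes are variants of the proximal part of Chr 17 that differ from the usual chromosome by inversions and carry recessive lethal mutations. The lethal mutation of *tw18* is a deletion that includes *Ppp2r1a*. This gene encodes the alpha scaffold of protein phosphatase 2A (PP2A), the protein on which a catalytic C subunit and a regulatory B subunit assemble. At E6.5 the primitive streak begins to form at the posterior side of the epiblast under Nodal, WNT, BMP and FGF signals, and cells that pass through it express the T-box factor Brachyury (*T*) and then *Mesp1*. *Prl8a2*, a member of the prolactin family, marks a different tissue, the decidua with which the uterus surrounds the embryo.

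The sequence before the start of *T* is shown because *T* was the most abundant streak gene past the threshold used below. It is the RefSeq sequence of GRCm38.p6, written 5′ to 3′ on the strand of the gene, and it ends at the base before the start, which is the same in RefSeq and GENCODE. The capitals mark the reverse complement TCAAAG of the WNT effector (TCF/LEF) motif CTTTGA.
T, chr17:8434173-8434422, plus strand: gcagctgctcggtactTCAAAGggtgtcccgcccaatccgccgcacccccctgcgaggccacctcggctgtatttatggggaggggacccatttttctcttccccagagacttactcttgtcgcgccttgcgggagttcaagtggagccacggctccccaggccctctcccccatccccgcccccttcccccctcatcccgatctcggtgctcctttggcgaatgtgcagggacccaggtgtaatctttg
Within these 250 bases *T* held 1 match, 234 to 229 bases before the start. A match on either strand occurred in 14.1% of 27025 RefSeq promoters of that length. In the 250 bases before their RefSeq starts, *Mesp1* held 2 matches and *Mesp2*, *Gsc* and *Apln*, which are described below, held 0. GENCODE places the start of *Mesp1* further upstream, so that part of its stretch lies inside the gene in that annotation. The motif was chosen after the values were seen, and a match describes these letters only.

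The 2 libraries were close for most genes. Of the 12426 genes, 11312 reached an FPKM of 1 in both libraries, 547 in wild type only and 567 in *tw18*/+ only. Over the 12281 genes above 0 in both, the log2 ratio of FPKM in *tw18*/+ over wild type had a median of 0.0021, with quartiles of -0.23 and 0.22, and 76.9% of the genes lay within 0.5 of 0. At a threshold of 1 on the log2 scale, 584 genes were past it on the higher side in *tw18*/+ (4.7%) and 624 on the lower side (5.02%), together 9.72%. Most of these calls were genes of low level, since 967 of the 1208 had an FPKM under 5 in both libraries. The share of genes past the threshold was 40.1% where the higher FPKM lay between 1 and 2, 17.6% between 2 and 5, 6.15% between 5 and 10, 1.95% between 10 and 30, 1.02% between 30 and 100 and 0.845% above 100. From the spacing of the low FPKM values, 1 fragment on a transcript of 1 kb was worth about 0.0698 FPKM in wild type and 0.0494 in *tw18*/+, so that *tw18*/+ was sequenced 1.41 times as deeply. The counting intervals given below (95%, exact, on approximate fragment numbers) cover counting error only, not the spread between embryos or amplification by PCR.

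A level of 10 FPKM or more in either library was found for 6455 genes, of which 34 were higher (0.527%) and 65 lower (1.01%) past the threshold. Above an FPKM of 100 there were 710 genes, of which 6 were lower and 0 higher. *Ppp2r1a*, *T*, *Mesp1* and *Prl8a2* all lay on the lower side. Among the genes of its own level that were above 0 in both libraries, *Prl8a2* had the lowest log2 ratio of 710, *Mesp1* the lowest of 2303 with FPKM between 5 and 10, *T* ranked 18 of 3685 between 10 and 30, and *Ppp2r1a* ranked 9 of 710.

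**Figure D1:**
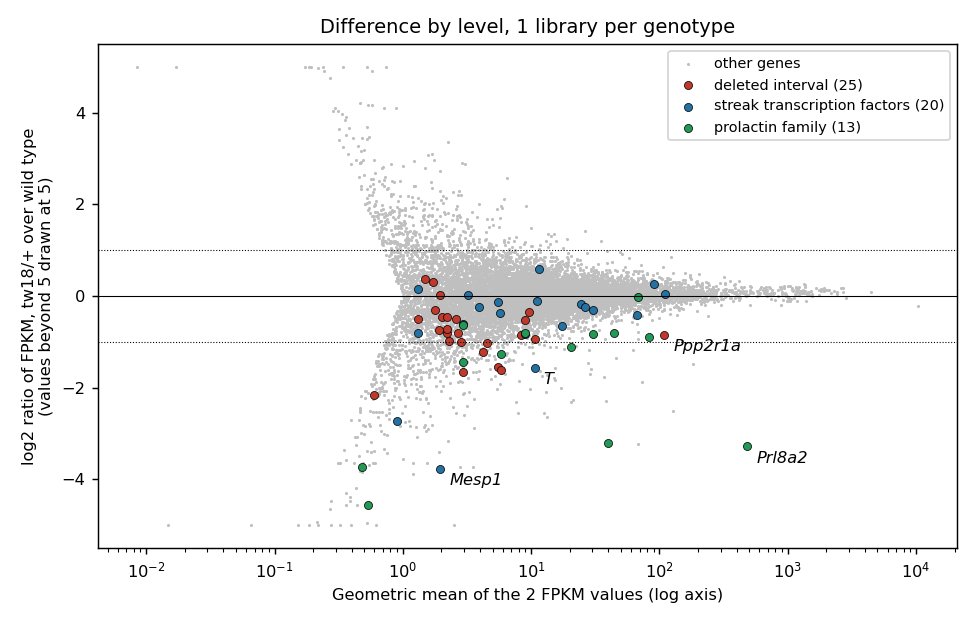
Log2 ratio of FPKM in tw18/+ over wild type (vertical axis) against the geometric mean of both FPKM values (log axis), 1 point for each gene above 0 in both libraries, with dotted lines at a log2 ratio of 1 in either direction and values beyond 5 drawn at 5. The spread of all genes narrows as the level rises, while Prl8a2 (-3.28), Mesp1 (-3.78), T (-1.57) and most genes of the deleted interval lie below 0.

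A log2 ratio of -1 corresponds to 1 of 2 equally used copies. The deleted interval was lower in *tw18*/+ almost throughout, with a median short of that value at FPKM of at least 1. Of its 62 symbols in the table, 34 were vomeronasal receptor genes or pseudogenes, whose known place of expression is the vomeronasal organ. A level of 1 FPKM or more was found for 25 of them, 34 were listed at 0 in both libraries and 3 were above 0 but under 1. Of the 25, 22 were lower and 3 higher in *tw18*/+, with a median log2 ratio of -0.80, against 0.0021 over all genes. With FPKM of at least 5 in either library, the median of the interval was -0.98. Over the 25 genes, the median *tw18*/+ level was 57.3% of wild type. A log2 ratio of -1 or less was reached by 7 genes (28%), beside 5.02% of all genes, and 14 lay between -1.5 and -0.5. The summed FPKM of the 25 genes was 268 in wild type and 151 in *tw18*/+.

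*Ppp2r1a* (Chr 17, 20945311 to 20965916, GRCm38, plus strand) stood at 146 FPKM in wild type, 81.7 in *tw18*/+ and 12.8 in *tw18*/*tw18*. The *tw18*/+ level was 55.9% of wild type, a log2 ratio of -0.84 with a counting interval of -0.90 to -0.78 from about 4843 and 3823 fragments. The order of the 3 libraries is the order of the copy numbers that the labels give. In *tw18*/*tw18* the value was not 0, at 8.72% of wild type.

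The other deleted genes are mostly zinc finger genes (Zfp), which encode DNA-binding proteins of a large repeated family. Of 19 such genes at 1 FPKM or more, 17 were lower in *tw18*/+, 6 of them past the threshold, and the median was -0.81. Their level was low, between 1.31 and 14.8 FPKM in wild type. *Zfp948* went from 10.1 FPKM in wild type to 3.30 in *tw18*/+ (0.783 in *tw18*/*tw18*), a log2 ratio of -1.62. *Zfp52* went from 5.22 to 1.66 (0.148 in *tw18*/*tw18*), a log2 ratio of -1.66, and *Zfp51* from 9.45 to 3.23 (0.261), a log2 ratio of -1.55. These 3 neighbours lay further below 0 than *Ppp2r1a*. *Zfp760* went from 6.45 to 2.78 (-1.21), *Zfp944* from 6.42 to 3.17 (-1.02) and *Zfp229* from 4.0 to 1.98 (-1.01).

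Near the median stood *Zfp946*, the most abundant zinc finger gene of the interval, with 14.8 in wild type and 7.77 in *tw18*/+ (-0.93), *Zfp758* with 3.21 and 1.62 (-0.99), *Zfp942* with 11.3 and 6.24 (-0.85), *Zfp160* with 3.59 and 2.05 (-0.81), *Zfp54* with 2.48 and 1.49 (-0.73), *Zfp820* with 2.86 and 1.73 (-0.73) and the transcript *2210404O09Rik* with 2.93 and 1.68 (-0.80). Smaller differences were found for *Gm4944*, from 10.7 to 7.52 (-0.51), *Zfp945*, from 3.12 to 2.20 (-0.51), *Zfp943*, from 2.60 to 1.88 (-0.47), *Zfp53*, from 2.35 to 1.72 (-0.45), and *Gm10509*, from 1.99 to 1.61 (-0.31). The lowest ratio was that of *Gm16386* (-2.17), at 1.27 FPKM in wild type and 0.283 in *tw18*/+ from about 24 and 8 fragments. The 3 genes on the higher side had low values, with 1.31 and 1.70 for *Zfp947* (0.38), 1.54 and 1.90 for *Vmn2r-ps129* (0.30) and 1.95 and 1.97 for *Zfp40* (0.013). Zinc finger genes of this family share sequence, so that fragments could be split between them and with genes elsewhere.

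At the distal end of the interval, *Zfp213* stood at 1.57 FPKM in wild type, 1.11 in *tw18*/+ and 3.63 in *tw18*/*tw18*, and *Zfp13* had 10.9, 8.58 and 7.46. Whether these 2 genes are deleted is uncertain, although they lie inside the mapped interval by position. Both kept most of their wild-type level or more in *tw18*/*tw18*, with 231% for *Zfp213* and 68.7% for *Zfp13*. Over the other 23 genes the *tw18*/*tw18* level had a median of 9.01% of wild type (2.02% to 82.0%), and 19 of the 23 were under 25%. Without *Zfp213* and *Zfp13*, a choice made after their values were seen, the median log2 ratio in *tw18*/+ was -0.81.

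**Figure D2:**
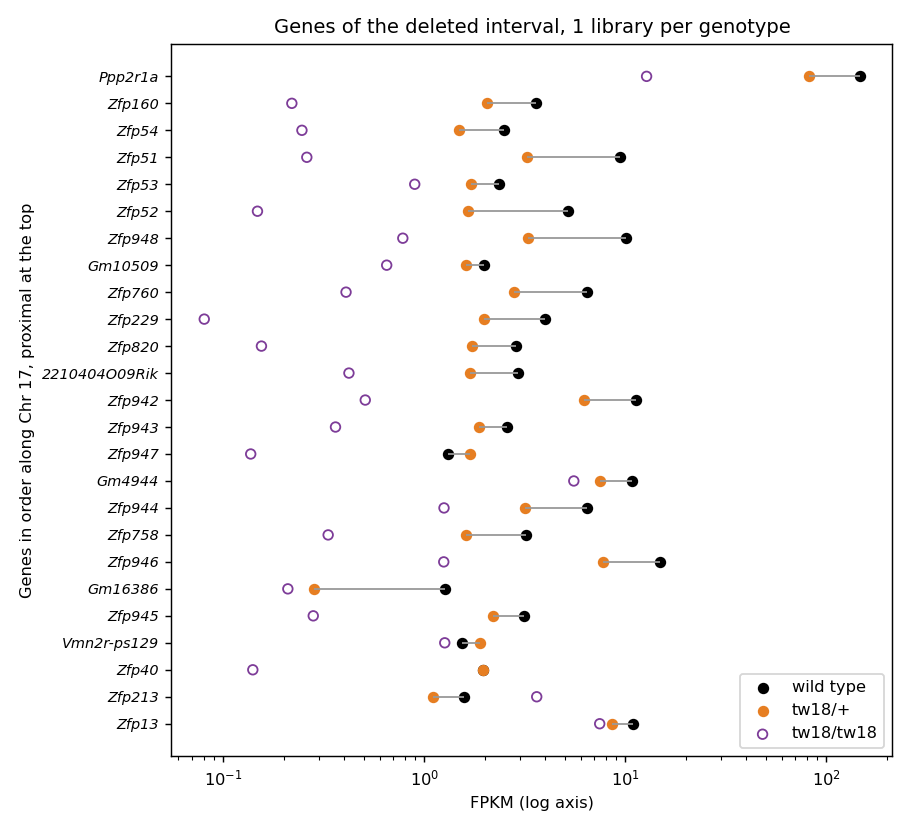
FPKM (log axis) of the 25 genes of the deleted interval with FPKM of at least 1 in wild type or tw18/+, in order along Chr 17, with 1 point for each library and a line joining wild type and tw18/+. The tw18/+ point lies left of the wild-type point for 22 genes, and Zfp213 and Zfp13 at the distal end keep their level in tw18/tw18 more than most.

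Zinc finger genes outside the interval did not show this shift. Of 234 Zfp genes elsewhere whose level did not exceed that of the deleted ones, 5 were past the threshold on the lower side (2.14%) and 17 on the higher, with a median of 0.048. The genes beside the interval had medians near 0. Within 2 Mb on the distal side, 72 genes had a median log2 ratio of 0.043, with 31 of them on the lower side. Past the threshold, 9 of the 72 were higher and 4 lower. Over all genes with FPKM of at least 1 in either library, 4.7% were higher and 5.02% lower past it. The 4 genes within 3 Mb on the proximal side had a median of 0.13, with 1 on the lower side.

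The remaining PP2A genes differed little. *Ppp2r1b*, which encodes the beta scaffold, stood at 30.4 FPKM in wild type and 30.3 in *tw18*/+ (24.4 in *tw18*/*tw18*), a log2 ratio of -0.0081 with a counting interval of -0.10 to 0.086. In wild type, per length of transcript, it was therefore below *Ppp2r1a*. The catalytic subunit genes *Ppp2ca* (167.5 and 161.9) and *Ppp2cb* (49.2 and 48.0) had log2 ratios of -0.049 and -0.035. Of 14 B subunit genes at 1 FPKM or more, 8 were above 0 and 6 below. The 1 past the threshold, beside 9.72% of all genes, was *Ppp2r2c*, with an FPKM of 2.68 and 0.849 (-1.66), named for that reason. Among the B subunit genes with FPKM of at least 5, the largest differences were *Ppp2r3c* from 11.7 to 16.6 (0.50), *Ppp2r5b* from 8.08 to 5.86 (-0.46), *Strn* from 11.7 to 9.01 (-0.37) and *Ppp2r2d* from 36.2 to 28.2 (-0.36). None of 9 PP2A modulator genes passed a log2 ratio of 1. The largest among them was that of *Ppme1*, the PP2A methylesterase, from 34.7 to 25.7 (-0.43).

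The transcription factors of the streak and early mesoderm were lower on balance, led by *Mesp1* and *T*. Of 25 listed genes, 20 reached an FPKM of 1, of which 15 were lower and 5 higher in *tw18*/+, with a median log2 ratio of -0.27. Past the threshold, 3 were lower and 0 higher, which is 3 of 20 beside 5.02% of all genes. In bulk RNA, fewer cells that express a gene and less RNA per cell cannot be told apart, and this holds for every difference given here.

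*T* (Chr 17, 8434423 to 8442496, GRCm38, plus strand) lies proximal to the deletion. It stood at 18.3 FPKM in wild type, at 6.16 in *tw18*/+, and was listed at 0 in *tw18*/*tw18*. The *tw18*/+ level was 33.7% of wild type, a log2 ratio of -1.57 with a counting interval of -1.79 to -1.35 from about 510 and 243 fragments. *Mesp1* (Chr 7, 79792241 to 79793788, minus strand) had 7.26 in wild type and 0.530 in *tw18*/+ and was listed at 0 in *tw18*/*tw18*. Its log2 ratio in *tw18*/+ was -3.78, with an interval of -4.68 to -2.90. About 122 fragments lay behind the first value and 13 behind the second. Its neighbour and paralog *Mesp2* had 2.32, 0.348 and 0.162. Summed over the pair, since fragments could be split between them, the FPKM was 9.58 in wild type and 0.878 in *tw18*/+, a log2 ratio of -3.45.

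The other members lay nearer to 0. *Gsc*, a homeobox gene of the anterior streak, went from 12.03 to 6.76 (2.53 in *tw18*/*tw18*), a log2 ratio of -0.83, and *Snai1*, the repressor of E-cadherin, from 21.6 to 13.8 (-0.65). *Eomes* went from 77.1 to 58.0 (-0.41) and *Mixl1* from 33.9 to 27.5 (-0.30). *Hand1*, a factor of extra-embryonic mesoderm and trophoblast, was the highest, from 9.31 to 14.0 (0.59). *Foxa2* with 11.5 and 10.7 (-0.11) and *Foxh1*, the Nodal effector, with 110 and 113 (0.049) were close in both libraries. *Eomes*, *Mixl1*, *Foxa2* and *Foxh1* were named after their values were seen. The list therefore held large differences in *T*, *Mesp1* and *Mesp2* beside smaller ones in other genes of the streak.

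Signals of the streak lay on both sides of 0. Of 19 listed signal genes at 1 FPKM or more, 13 were lower and 6 higher, with a median of -0.15, and 3 were lower and 2 higher past the threshold, beside 5.02% and 4.7% of all genes. *Apln*, which encodes the peptide apelin, went from 14.6 FPKM to 7.13 (1.71 in *tw18*/*tw18*), a log2 ratio of -1.03 with an interval of -1.21 to -0.85. *Bmp7* (2.57 and 0.975) and *Bmp4* (2.43 and 1.09) were also lower, and *Fgf3* (0.243 and 1.43) and *Fgf17* (0.386 and 1.20) were higher. These last 4 had low levels, where 40.1% (1 to 2 FPKM) and 17.6% (2 to 5 FPKM) of all genes were past the threshold, and were named after their values were seen. *Lefty2*, a Nodal inhibitor, had 7.503 and 4.004 (-0.91), while its paralog *Lefty1* had 13.3 and 12.9 (-0.050).

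None of the 21 Nodal pathway genes at 1 FPKM or more passed the threshold, and their median was -0.12. The members furthest from 0 besides *Lefty2* and *Gsc* were *Gdf1*, a ligand that acts with Nodal, from 9.99 to 5.34 (-0.90), and *Pcsk6*, a Nodal convertase, from 5.04 to 3.16 (-0.67). None of 27 listed genes of the WNT pathway and its targets passed it, and their median was -0.086, with 19 lower. This list leaves out *T*, which the study names as a WNT target and which was past the threshold (-1.57). The largest difference within the list was that of the ligand *Wnt3*, from 5.16 to 3.38 (-0.61). Among genes with FPKM of at least 5 it was followed by the inhibitor *Sfrp1*, from 37.5 to 48.3 (0.36). Of 21 FGF and ERK feedback genes 15 were lower, with a median of -0.18, and 1 was past the threshold. *Dusp4*, a phosphatase of ERK, went from 12.1 to 7.46 (-0.70), *Spred1* from 13.01 to 9.17 (-0.50) and *Fgf8* from 27.6 to 20.9 (-0.40). Of 20 BMP genes 12 were lower, with a median of -0.074 and 2 past the threshold. Over all genes, 9.72% were past it. The BMP target *Id1* went from 31.8 to 18.8 (-0.75).

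The defining genes of the sampled tissue were at like levels in both libraries. All 27 epiblast and pluripotency genes lay within the threshold, with 17 lower, 10 higher and a median log2 ratio of -0.053. Among those with FPKM of at least 5, the largest differences were *Dppa4* from 8.69 to 12.95 (0.58), *Epcam* from 79.3 to 95.5 (0.27), *Otx2* from 82.7 to 99.4 (0.27) and *Nanog* from 23.0 to 27.1 (0.24). The lowest ratio was that of *Tfcp2l1*, from 4.76 to 3.42 (-0.48), named for that reason. Summed over the 27 genes, the FPKM was 2666 in wild type and 2796 in *tw18*/+. Of 25 visceral endoderm genes, 1 passed the threshold, the apolipoprotein gene *Apoa2* (0.695 and 7.17), and the median was -0.069. *Apoa4*, another apolipoprotein, had 37.3 and 49.6 (0.41), and the regulator *Hnf4a* 21.9 and 16.3 (-0.42). None of 12 anterior visceral endoderm genes passed, with a median of -0.11, and *Cer1*, a secreted inhibitor of Nodal, had 46.6 and 61.3 (0.39). Genes of the epithelial to mesenchymal transition had a median of 0.055 over 18 genes, with 1 lower and 1 higher past the threshold. Over all genes, 9.72% were past it in either direction. *Fn1*, which encodes fibronectin, had 39.2 and 30.4 (-0.37).

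**Figure D3:**
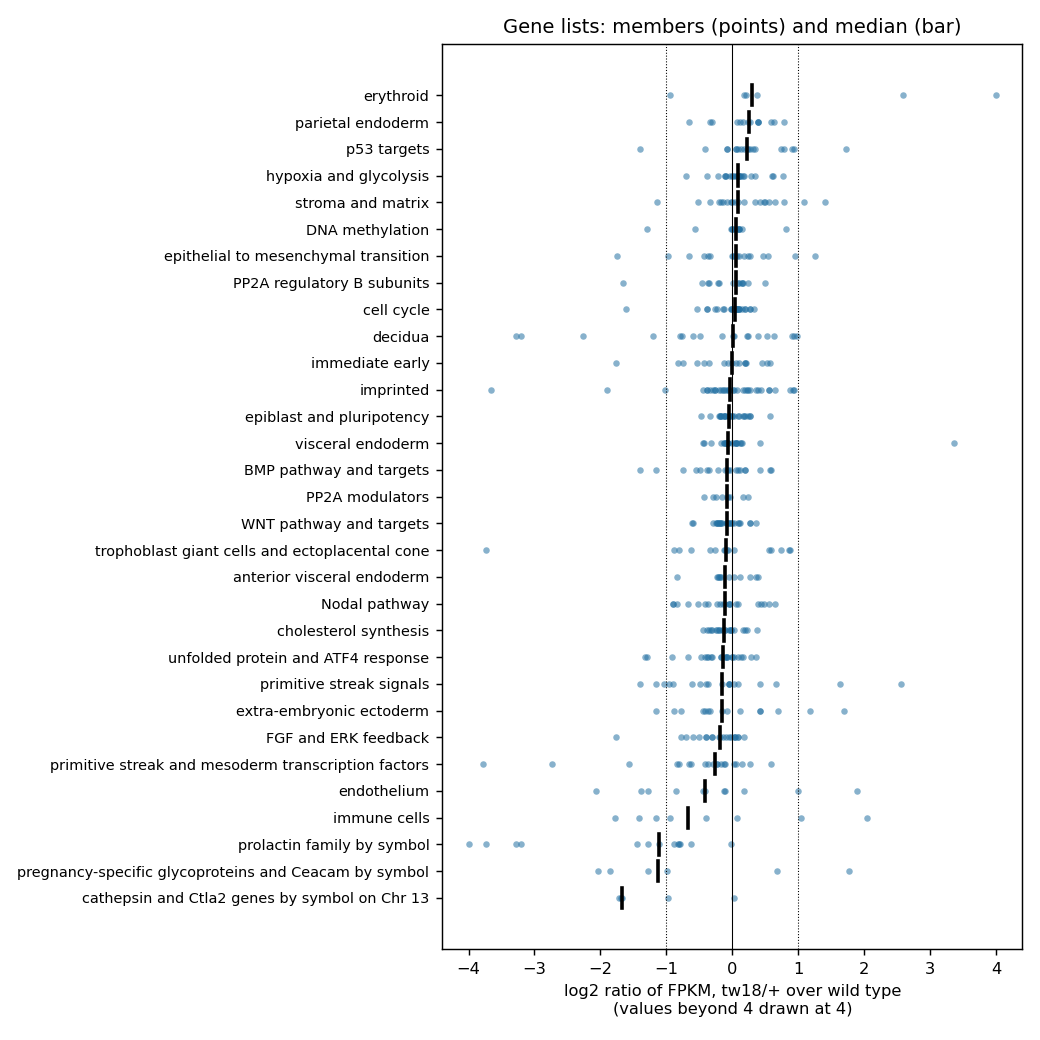
Log2 ratios of FPKM in tw18/+ over wild type (horizontal axis) for the members of each gene list, 1 point for each gene above 0 in both libraries, with the list's median as a bar, for lists with at least 5 members at FPKM of at least 1. Lists of the epiblast and of signalling lie close to 0, the streak transcription factors lie at a median of -0.27, and the prolactin family lies at -1.11. Endothelium (-0.41) and immune cells (-0.68) lie below the streak factors. The cathepsin and Ctla2 genes of Chr 13 (-1.68) and the pregnancy-specific glycoprotein and Ceacam genes (-1.13) lie below the prolactin family.

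Some of the largest differences at high level were in genes listed for the decidua, beside others such as *Timp3* that are given below. *Prl8a2* (Chr 13, 27345673 to 27354216, GRCm38, plus strand) stood at 1504 FPKM in wild type, 155 in *tw18*/+ and 377 in *tw18*/*tw18*. It ranked 25 of all genes by FPKM in wild type and 423 in *tw18*/+, and its log2 ratio was -3.28, with a counting interval of -3.34 to -3.22 from about 18078 and 2634 fragments. *Prl3c1*, another prolactin-like hormone gene of Chr 13, had 121, 13.2 and 25.2 in the same order (-3.20). *Htra1*, a secreted serine protease, had 46.8, 9.72 and 22.1 (-2.27), and *Angpt2*, the angiopoietin that acts against TIE2 signalling, had 11.1, 4.85 and 10.7 (-1.20). In these 4 genes the *tw18*/+ library was the lowest of the 3.

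The remaining decidual genes did not share this difference. Of 19 listed genes at 1 FPKM or more, 4 were lower and 0 higher past the threshold, beside 5.02% and 4.7% of all genes. Of the 19, 10 were above 0 and 9 below, and the median was 0.0064. *Wnt4* (1.69 and 3.32), *Dio3* (2.98 and 5.69), *Hoxa11* (3.67 and 6.87) and *Des* (45.5 and 65.9) lay on the higher side and *Hand2* (27.5 and 16.3) on the lower, all named after their values were seen. The summed FPKM of the list was 2144 in wild type and 661 in *tw18*/+, and most of that sum was *Prl8a2*. Genes of stroma and matrix had a median of 0.080, with a sum of 124 and 159. The dissected material is labelled as epiblast, and the part that decidual RNA has in the differences of the streak genes and of other genes was not tested.

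The prolactin family as a whole, taken by symbol after the values were seen, was on the lower side. Of its 26 symbols, 13 reached 1 FPKM or more, 7 of them lower past the threshold, beside 5.02% of all genes. These 13 were all lower in *tw18*/+, with a median log2 ratio of -1.11. Their summed FPKM was 1972 in wild type, 384 in *tw18*/+ and 926 in *tw18*/*tw18*. The members of trophoblast giant cells, *Prl3d1* (113 and 61.5), *Prl3d2* (30.3 and 14.0) and *Prl3d3* (40.7 and 22.9), had log2 ratios of -0.88, -1.11 and -0.83, and in *tw18*/*tw18* they stood at 202, 73.3 and 82.8. These 3 are near-identical copies and fragments could be split between them. *Prl8a9* had nearly the same FPKM in both libraries (68.9 and 67.8, log2 ratio -0.024).

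Some other genes of pregnancy tissue were also lower. *Cts7*, a placental cathepsin gene of Chr 13, went from 24.1 to 7.29 (-1.72) and *Ctla2b*, a cathepsin inhibitor gene, from 52.1 to 16.1 (-1.69), while *Ctsl* had 299 and 304. *Psg29*, a pregnancy-specific glycoprotein, went from 19.8 to 4.84 (-2.03) and *Ceacam15* from 15.3 to 4.21 (-1.86). Of 6 pregnancy-specific glycoprotein and Ceacam genes with FPKM of 1 or more, 3 were lower and 1 higher past the threshold. Over all genes the shares were 5.02% and 4.7%. Of the 6 genes, 2 were above 0. These families were also chosen after the values were seen. On Chr 13, 14 of 359 genes at 5 FPKM or more were lower past the threshold (3.9%) and 2 higher (0.557%), beside 1.63% and 1.12% over all genes of that level. Of the 14, 6 were prolactin, cathepsin or Ctla2 genes. The trophoblast list, by contrast, had a median of -0.094 over 16 genes with 1 past the threshold, and the extra-embryonic ectoderm list a median of -0.15 over 15 genes. *Sct*, which encodes secretin, had 11.9 and 6.44 (-0.88).

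**Figure D4:**
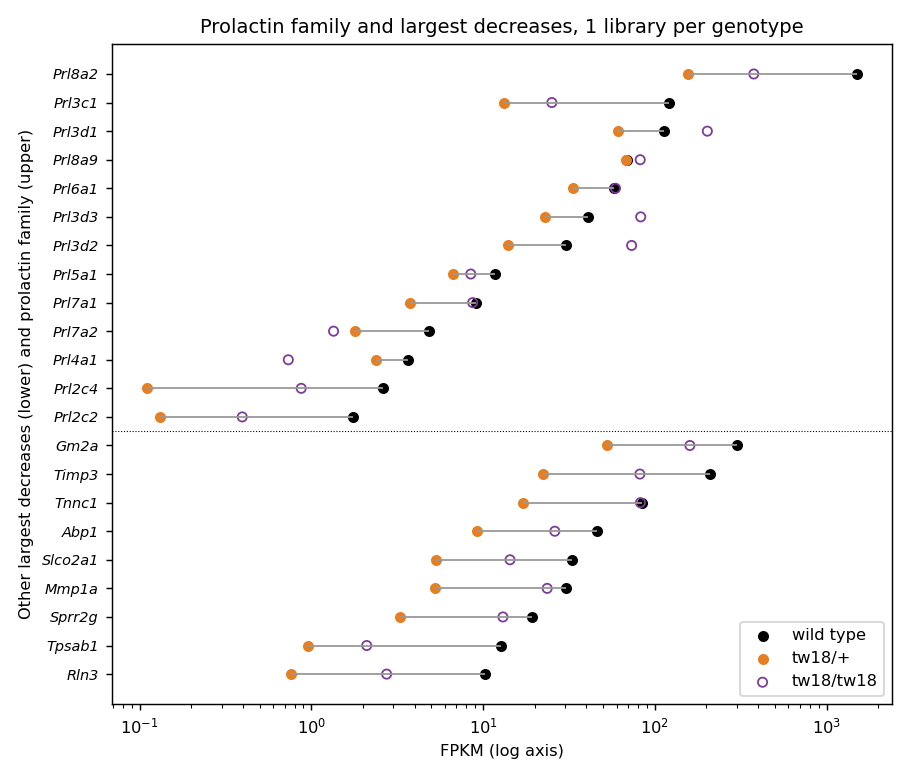
FPKM (log axis) of the 13 prolactin family genes (upper block) and of the other largest decreases with FPKM of at least 10 in either library (lower block, without Amd2), with 1 point for each library and a line joining wild type and tw18/+. The tw18/+ point is left of the wild-type point for each gene, and in the lower block the tw18/tw18 point lies between them or close to wild type.

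Further large decreases fell in genes of several kinds. *Timp3*, an inhibitor of metalloproteinases, stood at 209.8 FPKM in wild type, 22.3 in *tw18*/+ and 81.9 in *tw18*/*tw18*, a log2 ratio of -3.23 with a counting interval of -3.30 to -3.17. *Gm2a*, the GM2 ganglioside activator of lysosomes, had 302, 52.9 and 160 (-2.52), and *Slco2a1*, a prostaglandin transporter, had 33.1, 5.32 and 14.4 (-2.64). *Mmp1a*, a collagenase, had 30.6, 5.23 and 23.6 (-2.55). *Abp1*, the diamine oxidase that breaks down histamine, had 45.8, 9.26 and 26.2 (-2.31), *Tnnc1*, a troponin C, 84.2, 17.2 and 82.5 (-2.29) and *Sprr2g*, a cornified envelope protein, 19.2, 3.27 and 13.1 (-2.56). In these genes too the *tw18*/+ library was the lowest of the 3. *Rln3*, a relaxin, had 10.2 and 0.764 (-3.74), from about 78 and 8 fragments. The mast cell tryptases *Tpsab1* and *Tpsb2* had 12.8 and 0.958 and 11.2 and 2.96. Their sum went from 23.9 to 3.91, a log2 ratio of -2.61, and 5 of the 9 listed mast cell genes were at 0 in both libraries.

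Increases were fewer and smaller at this level. *Mgp*, the matrix Gla protein, had 16.2 in wild type, 43.0 in *tw18*/+ and 180 in *tw18*/*tw18* (1.41). *Myl7*, an atrial myosin light chain, had 2.95 and 11.5 (1.97), *Lgals2*, a galectin, had 3.06 and 11.7 (1.93), and *Tmem59l* had 5.97 and 16.7 (1.49). Several of the largest apparent differences were in pairs of near-identical copies. *Amd1* was at 0.0030 in wild type and 90.9 in *tw18*/+ while *Amd2* was at 88.7 and 0.070, and the sum of both was 88.7 and 91.0 (0.037). *Hba-a1* and *Hba-a2* together gave 52.2 and 54.0 (0.048) although *Hba-a2* alone went from 0.020 to 26.9. *Eif3j2* went from 2.62 to 15.7 (2.58), and with *Eif3j1* the sum was 54.3 and 51.4 (-0.080). *Atp6v0c*, a subunit of the vacuolar proton pump on Chr 17, was at 0.0025 in wild type and 13.9 in *tw18*/+. Zeros in 1 library also touched *Actr3*, listed at 0 in wild type with 81.5 in *tw18*/+, and *Dnmt3a*, listed at 0 in *tw18*/+ with 35.1 in wild type. An exact 0 can be a failed estimate, and no fold is given for them.

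Chr 17 held a larger share of genes on the higher side than the other autosomes, outside the deletion. Of 452 genes of the chromosome at 5 FPKM or more, 15 were higher (3.32%) and 14 lower (3.1%) past the threshold. In the first 40 Mb, without the deleted interval, 14 of 273 genes were higher (5.13%) and 7 lower (2.56%). The 14 count both copies of *Rsph3a* and *Rsph3b* and of *Rnaset2a* and *Rnaset2b*, between which fragments could be split. They also count *Atp6v0c*, whose wild-type value was 0.0025 FPKM. Beyond 40 Mb, 1 of 169 was higher (0.592%) and 2 lower (1.18%), and on the other autosomes 1.02% of 7968 genes were higher and 1.56% lower. The median log2 ratio of the first 40 Mb was -0.0019, so that the stretch as a whole was not shifted. The boundary of 40 Mb was set after the values were seen.

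Several of these genes lie in a cluster near *T*. *Rsph3b*, a radial spoke protein gene (6904413 to 6948682), stood at 2.96 FPKM in wild type, 12.8 in *tw18*/+ and 21.6 in *tw18*/*tw18* (2.11), and its copy *Rsph3a* had 2.96, 8.60 and 18.1 (1.54). Summed over the pair the values were 5.92, 21.4 and 39.7, a log2 ratio of 1.85 in *tw18*/+. The T2 ribonuclease genes *Rnaset2a* and *Rnaset2b* together had 22.6, 52.9 and 47.7 (1.23), so the difference was present in the sums of both pairs of copies. *Mpc1*, a subunit of the mitochondrial pyruvate carrier (8282904 to 8297661), had 2.79, 10.4 and 8.28 (1.90). Within the same stretch *Rps6ka2*, a ribosomal S6 kinase, had 22.8, 10.6 and 3.68 (-1.11). *Snx9*, a sorting nexin gene proximal to this cluster (5841329 to 5931954), had 29.0, 14.4 and 25.2 (-1.01). Some other genes near *T* lay within the threshold, with log2 ratios of 0.033 for *Fgfr1op*, 0.31 for *Sft2d1* and -0.029 for *Qk*. The lower value of *T* therefore stood among neighbours that were higher, neighbours that were lower and neighbours within the threshold. Distal to the deletion, *0610011F06Rik* had 9.46, 24.1 and 18.3 (1.35) and *Angptl4*, an inhibitor of lipoprotein lipase, had 2.82, 7.96 and 5.37 (1.5). *Rsph3a*, *Rnaset2b*, *Rps6ka2*, *Snx9*, *Fgfr1op*, *Sft2d1*, *Qk* and *Angptl4* were named after their values were seen.

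**Figure D5:**
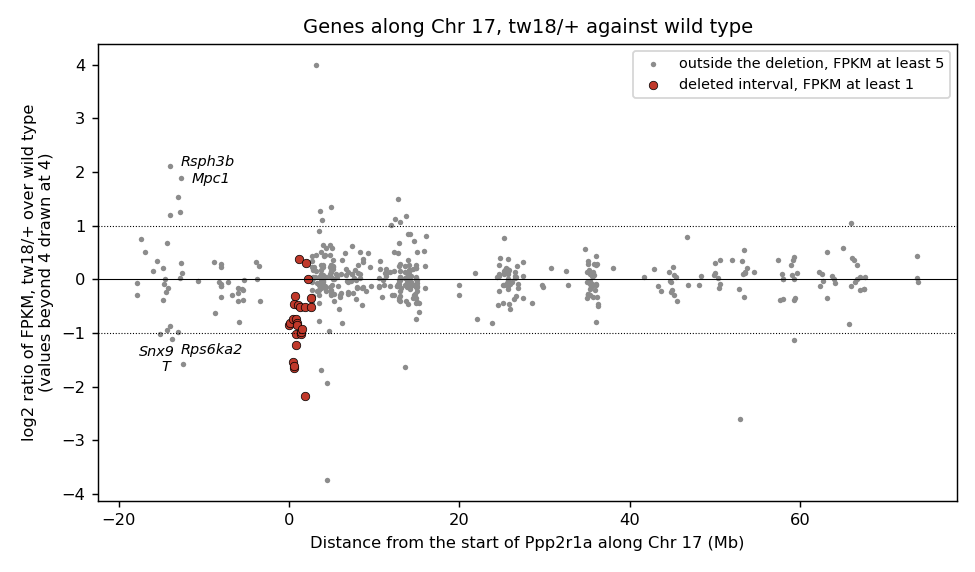
Log2 ratio of FPKM in tw18/+ over wild type (vertical axis) against the distance from the start of Ppp2r1a along Chr 17 in Mb, for genes outside the deletion with FPKM of at least 5 and genes of the deleted interval with FPKM of at least 1. The deleted genes lie together below 0 (median -0.80), and 14 of the 15 genes past the upper dotted line lie within the first 40 Mb of the chromosome.

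Vessel and immune genes, mostly of low level, lay on both sides of 0. Of 12 endothelial genes at 1 FPKM or more, 3 were lower and 3 higher past the threshold, with a median of -0.41. *Pecam1* had 8.39 and 3.23 (-1.38) and *Cdh5*, the endothelial cadherin, 23.2 and 12.9 (-0.85). Of 10 immune genes, 4 were lower and 3 higher, with a median of -0.68, and the receptor gene *Csf1r* of macrophages had 10.7 and 4.02 (-1.42). Over all genes 9.72% were past the threshold, and 40.1% and 17.6% at the low levels of 1 to 2 and 2 to 5 FPKM where most of these genes lay. The sum of the immune list was 30.8 and 21.6. The beta-globin genes *Hbb-b1* and *Hbb-b2* had a sum of 80.9 in wild type and 97.5 in *tw18*/+ (0.27).

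Apart from the p53 targets, lists of cell state genes had medians near 0. These were 0.047 over 29 cell cycle genes, 0.083 over 24 genes of hypoxia and glycolysis, -0.14 over 24 genes of the unfolded protein and ATF4 response, -0.12 over 22 cholesterol synthesis genes, -0.0079 over 17 immediate early genes and -0.042 over 35 imprinted genes. Of 19 targets of p53, 15 were higher, with a median of 0.23. Past the threshold, 1 was higher and 1 lower, beside 4.7% and 5.02% of all genes. *Ccng1*, a cyclin gene, had 19.7 and 37.8 (0.94), *Phlda3*, a repressor of AKT, 6.32 and 11.9 (0.91), and *Perp*, a desmosome gene, 11.1 and 4.18 (-1.40). In a tissue list, that of parietal endoderm, 11 of 14 genes were also higher, with a median of 0.25 and 0 past the threshold. *Lama1*, a laminin chain of the basement membrane, had 18.1 and 31.4 (0.79) and the proteoglycan gene *Srgn* 85.9 and 133 (0.63). *Commd1* had 37.0 and 69.8 (0.92), the methyl-binding protein gene *Mbd1* 7.32 and 2.99 (-1.29), and *Zfp57*, a keeper of imprints, 8.99 and 15.8 (0.82).

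The libraries also differed in a measure related to sex. *Xist*, the RNA of the inactive X chromosome, stood at 27.9 FPKM in wild type, 55.2 in *tw18*/+ and 105 in *tw18*/*tw18*, a log2 ratio of 0.99 in *tw18*/+. Y-linked genes were present in both libraries, with *Ddx3y* at 9.19 and 8.61 and *Eif2s3y* at 29.2 and 21.7, so both hold RNA of male embryos. The median over 309 genes of Chr X at 5 FPKM or more was 0.026, with 2 higher (0.647%) and 5 lower (1.62%) past the threshold. The part of the mix of sexes in the other differences was not tested.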

How the data were processed

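Embryos at E6.5 gave 1 RNA-seq library for each of wild type, *tw18*/+ and *tw18*/*tw18*. Genotypes were taken from the sample labels and the column names. Per the labels and methods, the authors prepared libraries with the TotalScript kit, sequenced 50 bp paired-end reads, aligned them with TopHat to mm10 (GRCm38), calculated FPKM values with Cuffdiff and deposited these. The submitters' processing notes also name Bowtie 1.0.0 and Cufflinks 2.2.1. The gene annotation given to Cuffdiff is not given in the sources used here. Each FPKM value depends on the other genes of its library.

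Log2 ratios were computed without a pseudocount (Python 3.11.15, numpy 2.4.6, pandas 2.3.3, scipy 1.17.1, matplotlib 3.10.9), for genes with FPKM of at least 1 in either library, and a log2 ratio of at least 1 counted as past the threshold. Genes listed at 0 in 1 library counted if the other value reached 1. With 1 library for each genotype no test was made. Depth was estimated from the steps between low FPKM values of genes with a single transcript of at least 1000 bp, allowing 100 bp for the fragment length. Of the 112 low values used in wild type and 180 in *tw18*/+, 85.7% and 85% were within 0.2 of whole fragments. Fragment numbers are therefore approximate. The calls and the depth estimate were also run on simulated data, with changes set past the threshold and the same allowance of 100 bp. Those runs check the code and do not show how reliable the calls or depths are here. Positions came from GENCODE M21, completed with RefSeq, and were found for 12372 of the 12426 genes. The deleted interval is the stretch of Chr 17 that the study mapped as deleted.

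The genes named are *Ppp2r1a*, *T*, *Mesp1* and *Prl8a2*, all genes of the deleted interval with FPKM of at least 1, the 12 genes that rose most and the 12 that fell most in log2(FPKM + 1) among genes with FPKM of at least 10 and above 0 in both libraries, genes listed at 0 in 1 library with at least 10 in the other, and up to 4 genes of each list with FPKM of at least 5. Others are marked where they appear, and 1 gene that the rule names is not reported here. The members and the gene lists were chosen with earlier results of these data known. Alternatives were a pseudocount of 0.1 or of 1, stricter or no FPKM filters, a log2 threshold of 2, centring on the median log2 ratio and scaling to equal FPKM sums.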

Additional observations from a re-analysis of the deposited data

How the results depend on the processing

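The counts of genes past the threshold depended on how low levels were treated. The 584 genes higher in *tw18*/+ became 264 with a pseudocount of 1, 98 with FPKM of at least 5, 178 with FPKM of at least 1 in both libraries, 2636 with no filter, 213 at a log2 ratio of at least 2, and 34 with FPKM of at least 10, an alternative added after seeing the data. The 624 lower genes became 287, 143, 252, 1656, 210 and 65 in the same order. The median log2 ratio of the deleted interval moved from -0.80 to -0.55 with a pseudocount of 1 and to -0.98 with FPKM of at least 5, and that of *Mesp1* from -3.78 to -2.43 with a pseudocount of 1, which compresses differences at low levels. With a pseudocount of 1 the list medians became -0.29 for endothelium, -0.42 for immune cells and -0.83 for uterine epithelium, which held 3 genes. Of 132 values computed under alternatives, 114 stayed within the limits set for a move, 18 moved and 0 reversed, and 1 of 30 list medians changed its sign. Centring shifted every log2 ratio by -0.0021 and scaling to equal FPKM sums by -0.035. No paired analysis was possible because there was 1 library for each genotype. Without replicates, differences between embryos, dissections and genotypes cannot be told apart.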
